A study of Planococcus citri with 8 samples.

Results

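The gene models described here encode farnesyl diphosphate synthases (FPPS) and FPPS-like proteins of the citrus mealybug *Planococcus citri*. They are the 9 gene models, of 40620 in the count table, that stand for 7 candidates of the *trans*-isoprenyl diphosphate synthase (*trans*-IDS) family. transIDS3 (g32607) and transIDS5 (g14484 and g21383) are the FPPS candidates. transIDS8 (g34061), transIDS9 (g7366), transIDS10 (g2704), transIDS11 (g9107) and transIDS12 (g14822 and g14825) are the FPPS-like candidates. The paper's other FPPS-like candidates, transIDS13 and transIDS18, are outside this set. The rule names the gene models and uses no level.

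*Trans*-IDS enzymes join the isoprenoid units isopentenyl diphosphate and dimethylallyl diphosphate into longer chains. An FPPS makes farnesyl diphosphate, from which insects derive juvenile hormone, the lipid anchors of prenylated proteins and, after further elongation, the side chain of ubiquinone. The catalytic pocket is lined by a first and a second aspartate-rich motif, which bind the diphosphates through magnesium ions. The FPPS-like candidates keep the first motif but not the canonical second one. Female mealybugs also emit sex pheromones built on irregularly coupled isoprenoid units. The study sought the enzyme that makes the irregular skeleton by sequence searches and enzyme assays, and set virgin against mated females as additional support.

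RNA was sequenced from 4 pools of virgin females (replicates 2, 3, 5 and 6) and 4 pools of mated females (replicates 8, 9, 10 and 11). Each pool held approximately 150 whole females, or approximately 100 mg. Virgin females came from lemons kept free of male cocoons, while mated females came from the main stock colony and were taken once they carried ovisacs with eggs. Mating, egg laying and rearing history therefore differed together and cannot be told apart, and in whole bodies fewer cells of a type cannot be told apart from less RNA per cell.

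The libraries held 29667566 to 40309575 counted read pairs in virgin pools and 33242618 to 50301861 in mated pools. One pool stood apart from its group. On the first principal component, which carried 78.4% of the variance, virgin replicate 2 scored 3.73, against 99.3 to 121 in the other virgin pools and -108 to -62.2 in the mated pools. Results that rest on this pool are given with and without it. The summed level of insect cuticle protein gene models, 44 in all, ranged from 562 to 10429 CPM (read pairs scaled to library size) in virgin pools and from 789 to 1400 CPM in mated pools, and virgin replicate 2 had the lowest sum. The 4 lipid transport gene models, which include the yolk protein class, summed to 215 to 273 CPM in virgin pools and 388 to 436 CPM in mated pools. By the same test, 1 of the 4 was lower in virgin females (g36282, mean 162 against 315 CPM) and 3 did not pass. Homeobox gene models, 33 in all, summed to 318 to 336 CPM in virgin pools and 456 to 548 CPM in mated pools. Of the 33, 5 were higher, 10 were lower and 18 did not pass, beside 26.4% higher and 21.3% lower over all tested gene models. The sums thus do not describe each gene model. No gene model carried a dynein heavy chain annotation from the list chosen to mark sperm. The part of these gene groups in the results below was not tested.

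Of the 9 gene models, 4 were higher in virgin females and 5 did not pass the test. Those higher were g32607 (transIDS3), g9107 (transIDS11), and g14822 and g14825 (transIDS12), which makes 3 of the 7 candidates. The call rule was an adjusted p under 0.05 in edgeR's quasi-likelihood test, adjusted by Benjamini-Hochberg over all 21179 tested gene models. By the same rule 26.4% of all tested gene models were higher in virgin females and 21.3% were lower, so the share of members called higher, 44.4%, stood beside a large background. None of the 9 was called lower by edgeR, and 1 was lower and 6 were higher at an unadjusted p under 0.05. DESeq2 and limma voom each called 4 higher and 0 lower, with g7366 in place of g9107 in limma voom. Every virgin pool was above every mated pool for 3 of the 9 (33.3%), beside 22.1% of all tested gene models. The median log2 fold change was 1.40 over the 9 members and 0.029 over all tested gene models. All 9 passed the filter on low counts. The count table gives no gene lengths, so levels are compared between pools and gene models are not ranked by level. Ratios, shares and sums over gene models, given below, also serve only to compare pools.

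**Figure D1:**
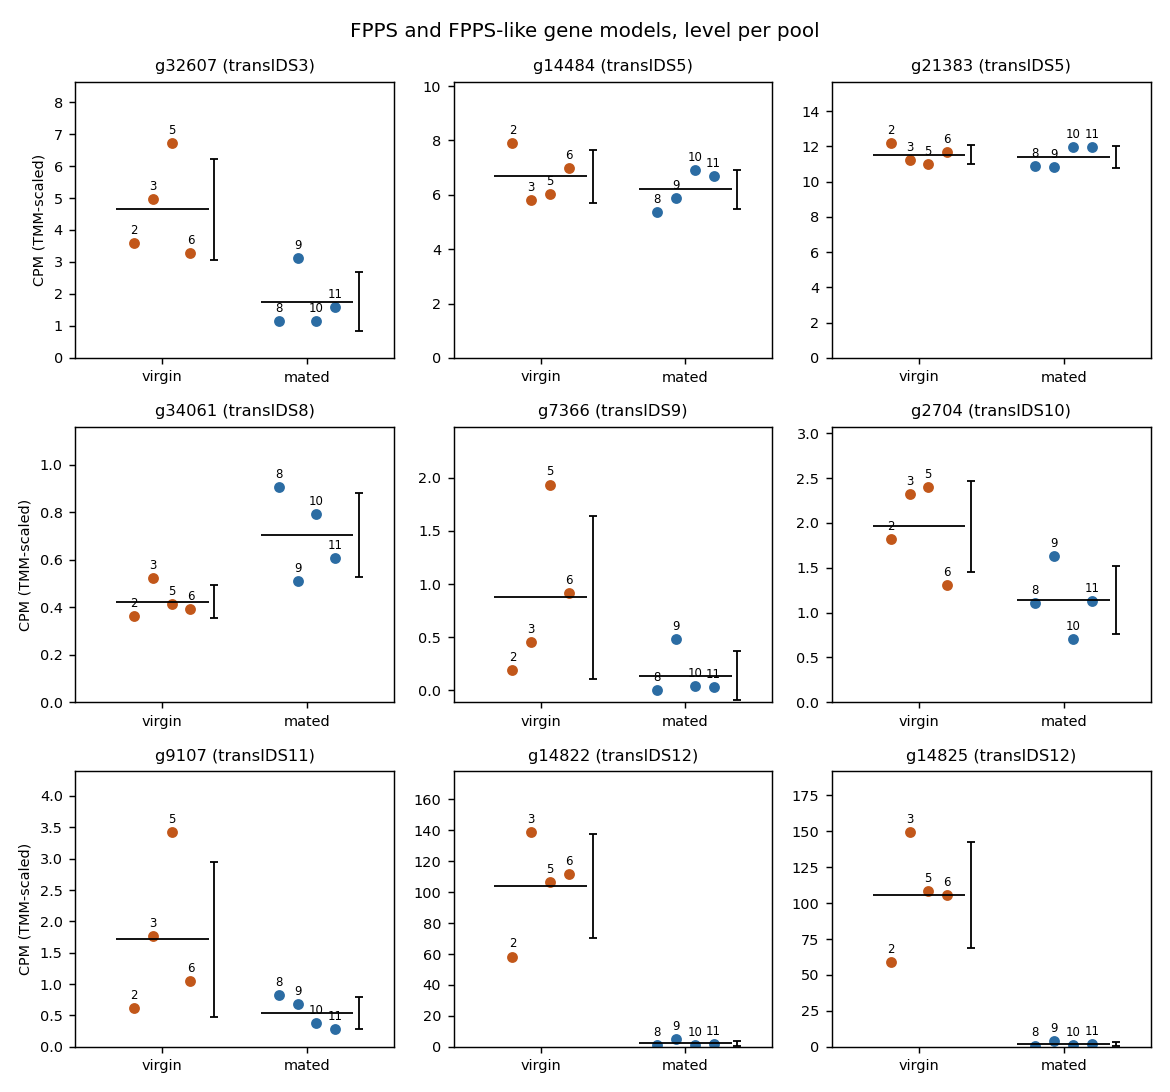
Level of each gene model in CPM, scaled by trimmed mean of M values (TMM), in virgin (left, orange) and mated (right, blue) pools; numbers are replicates, horizontal lines group means and bars 1 SD (n = 4 each), and the vertical axis differs between panels. The virgin and mated points separate widely for g14822 and g14825, narrowly for g32607, and overlap for the other 6 gene models.

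The FPPS candidates differed from each other. transIDS3 (g32607, scaffold PCITRI_00608) had 3.60, 4.97, 6.73 and 3.29 CPM in virgin replicates 2, 3, 5 and 6, against 1.16, 3.12, 1.17 and 1.59 CPM in mated replicates 8, 9, 10 and 11. The groups did not overlap, but the lowest virgin pool, replicate 6, was only slightly above the highest mated pool, replicate 9. The mean was 4.65 ± 1.57 CPM in virgin pools and 1.76 ± 0.93 CPM in mated pools (SD, n = 4 each). This gave a log2 fold change of 1.40 (SE 0.40, edgeR adjusted p = 0.0198). This call was lost when virgin replicate 5 (adjusted p = 0.0531), mated replicate 10 (adjusted p = 0.0600) or mated replicate 11 (adjusted p = 0.0579) was left out of the edgeR fit. Without virgin replicate 2 the log2 fold change was 1.49 (edgeR adjusted p = 0.0148).

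transIDS5, the second FPPS candidate, was at nearly the same level in all 8 pools by g21383 but varied more by g14484. Its gene model g21383 (PCITRI_00069) had 12.2, 11.2, 11.01 and 11.7 CPM in virgin replicates 2, 3, 5 and 6, against 10.9, 10.8, 12.0 and 12.0 CPM in mated replicates 8, 9, 10 and 11. Its other gene model g14484 (PCITRI_04051) had 7.92, 5.79, 6.04 and 6.99 CPM in the virgin pools, against 5.35, 5.87, 6.91 and 6.69 CPM in the mated pools, in the same order. Both gene models overlapped between the groups. The log2 fold change was 0.014 for g21383 (95% interval -0.26 to 0.29, edgeR adjusted p = 0.932) and 0.11 for g14484 (95% interval -0.28 to 0.50, edgeR adjusted p = 0.626). The intervals leave room for differences of that size in either direction.

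The spread of g21383 between pools was close to that of counting alone. The variance of its counts around the group mean, divided by that expected from counting, was 0.89 in virgin pools and 1.39 in mated pools, where a value of 1 means no spread beyond counting. The same ratio was 4.90 and 3.31 for g14484, and 20.2 and 20.1 for g32607, in virgin and mated pools in that order. The pool-to-pool spread of transIDS3 was thus well beyond counting error. The 2 transIDS5 gene models kept a narrow ratio to each other, with 0.52 to 0.65 read pairs on g14484 for each on g21383 in virgin pools and 0.49 to 0.58 in mated pools.

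Set against transIDS5 within each library, transIDS3 had 0.18, 0.29, 0.39 and 0.18 read pairs per transIDS5 pair in virgin replicates 2, 3, 5 and 6, against 0.07, 0.19, 0.06 and 0.09 in mated replicates 8, 9, 10 and 11. Here the groups overlapped, because mated replicate 9 was above virgin replicates 2 and 6. The difference in mean log2 ratio was 1.42, virgin minus mated, and it did not pass a two-sided exact permutation test (p = 0.0857, with 0.0286 the smallest p that 70 arrangements allow). Without mated replicate 9 the difference was 1.77 (exact permutation p = 0.0286, the smallest that the remaining libraries allow).

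The FPPS-like candidate transIDS12 had by far the highest fold change among the members. Its gene model g14822 had 58.4, 139, 107 and 112 CPM in virgin replicates 2, 3, 5 and 6, against 1.08, 4.78, 0.999 and 1.88 CPM in mated replicates 8, 9, 10 and 11. Its gene model g14825, on the same scaffold PCITRI_04220, had 59.3, 150, 108 and 106 CPM in virgin pools, against 0.93, 4.14, 1.25 and 1.83 CPM in mated pools, in the same order. Every virgin pool was above every mated pool for both, and virgin replicate 2 was the lowest virgin pool and mated replicate 9 the highest mated pool. The log2 fold change was 5.57 for g14822 (SE 0.60, edgeR adjusted p = 0.00105) and 5.69 for g14825 (SE 0.55, edgeR adjusted p = 0.000904). Over all alternative settings these values stayed between 5.31 and 6.49, and both calls held in each. Without virgin replicate 2 they were 5.76 for g14822 (edgeR adjusted p = 0.000147) and 5.88 for g14825 (edgeR adjusted p = 9.91e-05), and without mated replicate 9 both were 6.29 (edgeR adjusted p = 0.00127).

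The 2 gene models of transIDS12 stand for one candidate and may be pieces of one transcript, so they are not independent measurements. There were 0.93 to 1.06 read pairs on g14822 for each on g14825 in virgin pools and 0.80 to 1.15 in mated pools. Between them the count table lists 2 gene models. g14824, annotated with a reverse transcriptase domain, had 22, 101, 66 and 65 read pairs in virgin replicates 2, 3, 5 and 6, against 2, 5, 5 and 4 in mated replicates 8, 9, 10 and 11, and was higher in virgin females (log2 fold change 4.14, SE 0.56, edgeR adjusted p = 0.00157). g14823 had at most 3 read pairs in any library. The outer neighbours g14821 and g14826 had at most 6. The table orders gene models on a scaffold but gives no coordinates, so distances are not known.

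transIDS11 (g9107, PCITRI_02357) was the other FPPS-like candidate called higher. It had 0.62, 1.77, 3.43 and 1.04 CPM in virgin replicates 2, 3, 5 and 6, against 0.821, 0.682, 0.375 and 0.290 CPM in mated replicates 8, 9, 10 and 11. Virgin replicate 2 lay below 2 of the mated pools, so the groups overlapped, and virgin replicate 5 was the highest pool. Its log2 fold change was 1.66 (SE 0.57, edgeR adjusted p = 0.0423). The call was lost without virgin replicate 3 (adjusted p = 0.0809), virgin replicate 5 (0.126), mated replicate 9 (0.0689), mated replicate 10 (0.112) or mated replicate 11 (0.108) in the edgeR fit, and also in limma voom (0.0733) and in edgeR with no filter (0.0538). Without virgin replicate 5 the log2 fold change was 1.06, and without virgin replicate 2 it was 1.93 (edgeR adjusted p = 0.0115).

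The remaining FPPS-like candidates did not pass the test. transIDS9 (g7366, PCITRI_02041) had 7, 14, 75 and 35 read pairs in virgin replicates 2, 3, 5 and 6, against 0, 20, 2 and 1 in mated replicates 8, 9, 10 and 11. Mated replicate 9 lay above virgin replicates 2 and 3 in CPM, and the other mated pools lay at or near 0. A count of 0 in mated replicate 8 allows up to 0.0849 CPM, by counting error only. In the fit its log2 fold change was 2.60 (SE 1.08, edgeR adjusted p = 0.0774), and it passed without mated replicate 9 (4.95, edgeR adjusted p = 0.0116) or virgin replicate 2 (2.92, edgeR adjusted p = 0.0385), and in limma voom (3.401, adjusted p = 0.0375). Without virgin replicate 5 it was 1.85 (edgeR adjusted p = 0.214).

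transIDS10 (g2704, PCITRI_01371) had 1.83, 2.32, 2.40 and 1.30 CPM in virgin replicates 2, 3, 5 and 6, against 1.104, 1.63, 0.708 and 1.13 CPM in mated replicates 8, 9, 10 and 11. Only virgin replicate 6 and mated replicate 9 crossed. Its log2 fold change was 0.78 (SE 0.32, edgeR adjusted p = 0.0734), and it passed without mated replicate 9 (0.99, edgeR adjusted p = 0.0454).

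transIDS8 (g34061, PCITRI_00717) was the one member with a negative fold change. It had 13, 16, 16 and 15 read pairs in virgin replicates 2, 3, 5 and 6, against 32, 21, 38 and 21 in mated replicates 8, 9, 10 and 11. In CPM only virgin replicate 3 and mated replicate 9 crossed. The log2 fold change was -0.73 (SE 0.28, edgeR adjusted p = 0.0572), and it passed without mated replicate 9 (-0.87, edgeR adjusted p = 0.0488) or with upper-quartile scaling (-0.81, edgeR adjusted p = 0.0426).

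**Figure D2:**
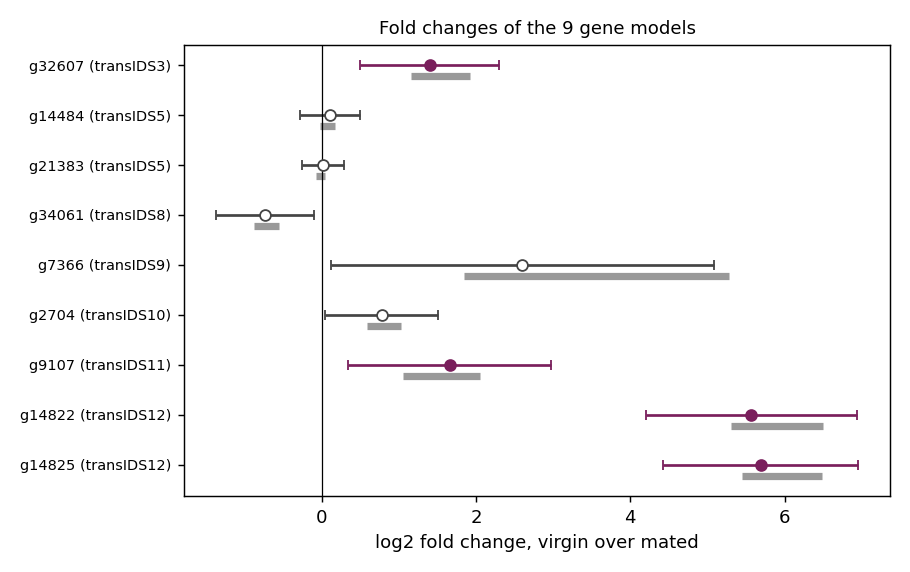
Log2 fold change, virgin over mated, of each gene model (points) with its 95% interval (lines); filled points passed edgeR's test and open points did not, and the grey bar below each point spans the values over all alternative settings. The intervals of g14822 and g14825 begin above 4 and those of g14484 and g21383 span 0.

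Across the whole set, the virgin pools stood apart mostly through transIDS12. The 9 gene models summed to 238 ± 70.5 CPM in virgin pools and 26.1 ± 4.24 CPM in mated pools (SD, n = 4 each). Without the transIDS12 gene models the sums were 27.8 ± 2.82 CPM in virgin pools and 21.9 ± 1.22 CPM in mated pools, a ratio of 1.27. transIDS12 took 81.5 to 91.4% of the members' read pairs in virgin pools and 9.03 to 27.8% in mated pools. transIDS5 took 5.39 to 13.9% in virgin pools and 52.1 to 78.0% in mated pools. These shares are of read pairs, uncorrected for length, and serve only to compare pools. Within a pool they depend on each other, so a higher share of transIDS12 lowers that of transIDS5.

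**Figure D3:**
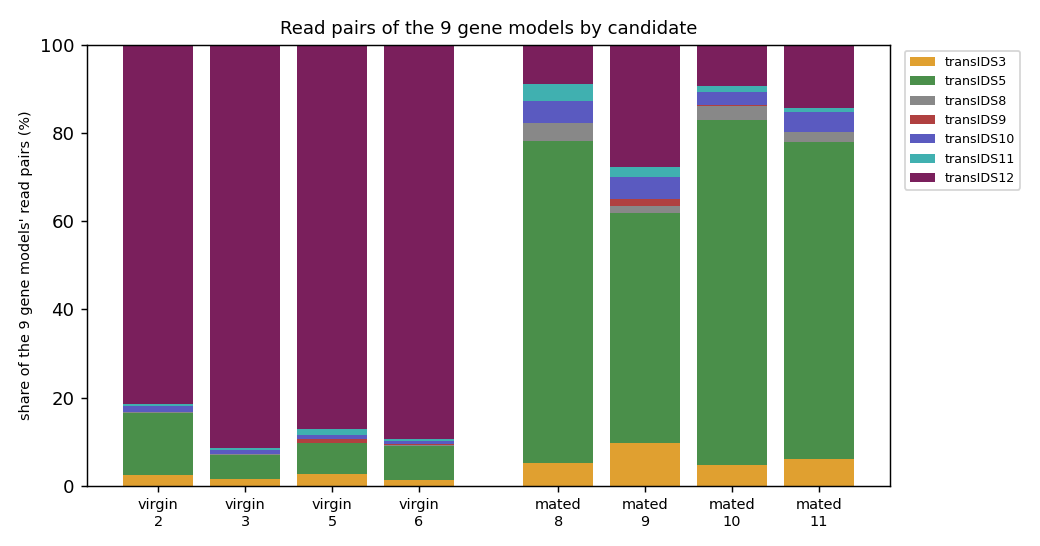
Share of the members' read pairs (percent) that fell on each candidate, with 1 bar per pool, virgin pools left and mated pools right. transIDS12 fills 81.5% or more of every virgin bar, and transIDS5 fills 52.1% or more of every mated bar.

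Within a library, transIDS12 had 5.84, 17.0, 12.6 and 11.7 read pairs per transIDS5 pair in virgin replicates 2, 3, 5 and 6, against 0.12, 0.53, 0.12 and 0.20 in mated replicates 8, 9, 10 and 11. The groups lay far apart. The difference in mean log2 ratio was 5.79, virgin minus mated (two-sided exact permutation p = 0.0286, the smallest that 70 arrangements allow).

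The pools did not vary alike for all members. Mated replicate 9 was the highest mated pool for 5 of the 9 gene models (g32607, g7366, g2704, g14822 and g14825), and 27% of all tested gene models had that pool highest. Virgin replicate 2 was the lowest virgin pool for 5 of the 9 (g34061, g7366, g9107, g14822 and g14825), beside 39.2% of all tested gene models, and the highest for both transIDS5 gene models. Virgin replicate 5 was the highest virgin pool for g32607, g7366, g2704 and g9107, beside 27.4% of all tested gene models. Because g14822 and g14825 stand for the same candidate, these counts are not of independent gene models. With 4 pools in each group, no correlation between members over the pools is given.

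**Figure D4:**
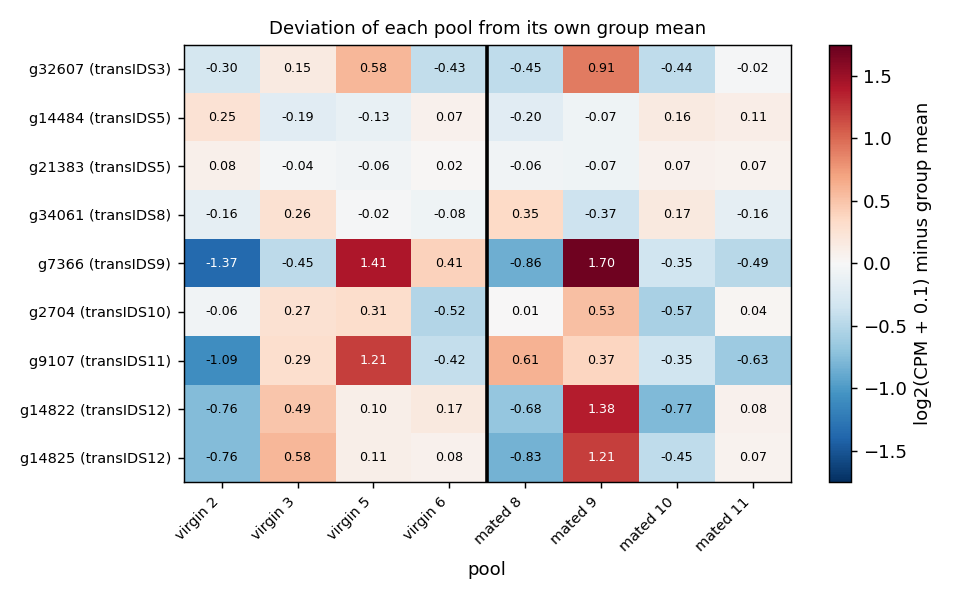
Deviation of each pool from the mean of its own group, in log2(CPM + 0.1), for each gene model (rows) and pool (columns, virgin left of the black line). Mated replicate 9 deviates by 1.70 for g7366 and 1.38 for g14822, while those of g21383 are at most 0.084 above its group mean.

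Likeness to a member was measured as the root-mean-square (RMS) difference of gene-centred log2(CPM + 0.1) values over the 8 libraries. For g14825 the most alike of 15212 gene models was g14822 (RMS 0.15), followed by g16590 (0.24), g13641 (0.28), g5578 (0.30) and g29715 (0.56). Of these, g5578 is annotated as a type B carboxylesterase, an enzyme class that splits ester bonds, and the other 3 named after g14822 carry no annotation. g5578 had 15.1, 20.1, 15.2 and 17.2 CPM in virgin replicates 2, 3, 5 and 6, against 0.11, 0.73, 0.12 and 0.32 CPM in mated replicates 8, 9, 10 and 11. Its highest mated pool was replicate 9, as the choice by likeness to g14825 favours. For g32607 the most alike were g39912, with a protein kinase domain (0.10), g8123, with a BTB/POZ domain (0.25), and g24221, with no annotation (0.27). For g9107 they were g5959, with no annotation (0.19), g10130, of the major facilitator superfamily of transporters (0.25), and g28694, annotated as a D-isomer specific 2-hydroxyacid dehydrogenase (0.25).

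Gene models listed next to the other members varied in direction. Beside g21383, g21382 with a FYVE zinc finger was lower (log2 fold change -0.35, edgeR adjusted p = 0.0108) and g21384 with a protein kinase domain was higher (0.40, edgeR adjusted p = 0.0117). Beside g14484, g14485 was higher (0.42, edgeR adjusted p = 0.0328) and g14483 did not pass (0.19). Beside g2704, g2703 was lower (-0.53, edgeR adjusted p = 0.0411) and g2705 did not pass (-0.073). The neighbours of g32607, g34061 and g7366 did not pass, and g9106 beside g9107 had no read pair in any library. Over all tested gene models 26.4% were higher and 21.3% lower. On PCITRI_00608, the scaffold of g32607, 4 of 9 other tested gene models were higher, and on PCITRI_04051, that of g14484, 4 of 8 were higher and 1 was lower. On PCITRI_00069, that of g21383, 7 of 39 were higher and 12 lower. On PCITRI_00717, that of g34061, 3 of 17 were higher and 5 lower, and on PCITRI_01371, that of g2704, 1 of 17 was higher and 7 were lower. The scaffolds of g7366, g9107 and transIDS12 each held 1 other tested gene model.

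Of 12 tested gene models on a list for the supply of isoprenoid units, 7 were higher, 3 did not pass and 2 were lower, with a median log2 fold change of 0.59, beside 26.4% higher and 21.3% lower over all tested gene models. A thiolase domain, found also in enzymes of fatty acid metabolism, was carried by 7 of the 12, of which 3 were higher and 1 was lower. The isopentenyl diphosphate isomerase homologue g36424, which interconverts the substrates of the *trans*-IDS enzymes, had 154 ± 18.9 CPM in virgin pools and 42.4 ± 3.84 CPM in mated pools (SD, n = 4 each), a log2 fold change of 1.86 (SE 0.12, edgeR adjusted p = 0.000437). g32752, with the GHMP kinase domain of small-molecule kinases, was also higher (log2 fold change 1.198, edgeR adjusted p = 0.000904). The annotation does not tell whether this kinase acts on mevalonate, and the same holds for g39867 and g37170, also higher. The hydroxymethylglutaryl-CoA synthase gene model g36917, an early enzyme of the mevalonate route, was lower (-0.89, edgeR adjusted p = 0.0023), as was the thiolase g30557 (-0.41, edgeR adjusted p = 0.0403).

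Of 7 tested gene models for enzymes that use prenyl diphosphates, 1 was higher and 6 did not pass, beside the same background, with a median log2 fold change of 0.037. The one higher was g32456 of the UbiA prenyltransferase family (0.35, edgeR adjusted p = 0.0242). Among other gene models from the study's search for IDS sequences 8 of 14 were tested, 7 did not pass and 1 was lower, and the median was 0.021. The one lower, g4554 (-3.48, edgeR adjusted p = 0.0186), carries no annotation and was a weak motif match in that search. It is therefore not established as an IDS gene. Another on this list, g24024, is annotated with a BIR repeat and not as an IDS. The FPPS-like gene models that are not among the 9, g34429 (transIDS13) and g26044 (transIDS18), were too low to be tested, with 0 to 15 read pairs per library. g34429 had 1 to 11 in virgin pools and 0 in mated pools, and g26044 had 0 to 15 and 2 to 5. The paper instead averaged fold changes over a cluster of sequences per candidate. On that unlike measure transIDS13 had a negative value, and transIDS9 and transIDS10 had positive values. The paper marked these candidates as significant, a mark it gave where any sequence of the cluster was significant. The mark is thus not a test of the averaged value.

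Enzyme activity was assayed by the study on proteins made in bacteria, and the calls crossed the classes of activity. The assays could identify short-chain products only. Among candidates for which regular coupling was detected, transIDS3 and transIDS11 were called higher in virgin females and transIDS5 did not pass the test. The paper measured the highest specific activity for transIDS5. It detected irregular coupling, at a low level, for transIDS5 only, when dimethylallyl diphosphate was the sole substrate. Among assayed candidates for which regular coupling was not detected, transIDS12 was called higher and transIDS10 did not pass. transIDS8 and transIDS9 were not assayed. No test of activity against level was made, since the candidates are few and a level in whole females is not an amount of enzyme.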

How the data were processed

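Strand-specific libraries of polyadenylated RNA were made from whole-female pools. The deposited counts are whole-number counts of read pairs per gene model: per the study's methods, the authors trimmed and filtered the reads, mapped them to the Pcitri.v1 genome and counted uniquely mapped pairs in CLC Genomics Workbench. Pairs that map to more than one place are thus not counted; how many this concerns among the members was not measured. Some gene models are partial. The sources used here do not give whether counting used strand. Tools listed by the submitters were edgeR 3.20.9 and limma 3.34.9, run in R 3.4.2, and FastQC. A deposited log2 CPM table was not used, and the table of the authors' fold changes and adjusted p-values served only for its InterPro annotation, held by 11584 of 40620 gene models.

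Counts were tested with edgeR 4.0.16 in R 4.3.3 (TMM, filterByExpr defaults, quasi-likelihood F test, virgin over mated, all 8 libraries, no covariate), which left 21179 gene models. Standard errors are the absolute log2 fold change over the square root of F, and 95% intervals use the fit's degrees of freedom. CPM are TMM-scaled. Alternatives used DESeq2 1.42.0, limma 3.58.1, other scalings and filters, and each library left out. Differences in log2 ratios were tested by exact permutation over libraries. The edgeR script was tested on simulated data. Replicates are called biological in the labels; all replicate pairs differed by more than counting noise (chi-square per degree of freedom 27.9 to 398).

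The members and lists were chosen with earlier results of these data known. All members are named; of other lists, up to 2 called gene models each way with the smallest p, and g36424 always; neighbours in the table's order; and the gene models most alike in profile, among those whose log2 CPM averaged 1 or more.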

Additional observations from a re-analysis of the deposited data

Results flagged for a closer look

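In 24 groups of 4 libraries checked for a sample far from the others, 1 stood out, and chance flags about 1 in 20 groups. transIDS9 (g7366) had 0.487 CPM in mated replicate 9, while the other mated pools had 0 to 0.0416 CPM.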

How the results depend on the processing

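Leaving out 1 library gave 2 to 5 members called higher, beside 4 in the full fit, and 0 to 1 called lower, beside 0. Upper-quartile scaling also called 1 member lower. Without virgin replicate 2 and mated replicate 9 together, an alternative chosen after the data were seen, 6 were higher and 0 lower. The log2 fold change of g21383, 0.014 in the full fit, was -0.0073 with RLE scaling, -0.0076 with DESeq2, -0.013 with no filter, -0.066 with upper-quartile scaling, -0.019 with voom quality weights and -0.054 without both libraries. It lay between -0.026 and 0.032 when single libraries were left out. That of g14484, 0.11 in the full fit, was -0.0031 with voom quality weights and -0.025 without both libraries, and at most 0.17 when single libraries were left out. The difference in log2 ratio of transIDS3 to transIDS5 lay between 1.19 and 1.77 when single libraries were left out, and passed only without mated replicate 9. The cause was not tested. The ratio of transIDS12 to transIDS5 (5.54 to 6.26) had an exact permutation p of 0.0286 in 12 of 12 alternatives, because the groups stayed fully apart. This is the smallest p the test can give, so it cannot rank the alternatives. With more than 1 CPM in at least 3 libraries, 7 of the 9 members were tested. Voom with quality weights called 34% of all gene models higher and 32.5% lower. Counts of 13 to 38 read pairs per library limit transIDS8, and 0 to 75 limit transIDS9. No paired analysis was possible because the virgin and mated pools share no replicate number.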
